A study of Mus musculus with 48 samples.

Results

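The striatum of mice labelled Q140 Msh3-/- was set against the striatum of mice labelled Q140, with 8 RNA-seq libraries in each group, chosen by their sample titles from the 48 libraries of the series. The Q140 Msh3-/- mice carry one copy of the Q140 knock-in and, by their label, no working copy of Msh3. The Q140 mice carry the same knock-in, and their label names no change of Msh3. Both groups hold 4 females and 4 males of 6 months on the C57BL/6 background, and the tissue is the whole corpus striatum. Mice labelled Msh3-/- without the knock-in (8 libraries) and wild type mice (7 libraries) are given beside them. The comparison asks what the loss of both Msh3 copies changes in striatum that carries the expanded repeat. Each library has its own code, but the labels do not say that each is a separate mouse. The p-values therefore measure the spread between libraries, which may be technical. That spread was estimated over all 48 libraries of the series, which include groups labelled Msh3+/- with and without Q140. Libraries are named by sex letter and number. The codes of Q140 F1 and F2 share a stem, as do those of Q140 Msh3-/- M2 and M3.

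Msh3 is a subunit of MutSβ, the mismatch repair complex that binds small loops of unpaired DNA. In mouse models of Huntington's disease, MutSβ is needed for the further lengthening of the CAG repeat in body tissues, and the striatum is one of the tissues where the repeat lengthens most. The Q140 allele places an expanded CAG repeat in the first exon of the mouse Htt gene. Most striatal neurons are medium spiny neurons (MSNs), which split into a direct pathway with the dopamine receptor Drd1 and an indirect pathway with Drd2, Adora2a and Penk. Lower RNA of MSN genes is a known feature of knock-in striatum.

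The 16 libraries held between 33673410 and 50850662 counts. Levels are given as CPM, a gene's counts brought to a common library size, after scaling by TMM, a method that assumes most genes do not change. Tests are edgeR quasi-likelihood tests over 19975 genes, adjusted by Benjamini and Hochberg's method and called at an adjusted p under 0.05. As a check of the tissue, the MSN gene Penk averaged 1486 CPM in the libraries labelled Q140 Msh3-/- and 965 CPM in the Q140 libraries. Hemoglobin, choroid plexus and ependymal markers passed no test between the groups. All 5 genes of the blood list nevertheless had fold changes above 0, with a median of 0.78 on the log2 scale. Their mean log2(CPM + 0.5) ran from -0.823 to 1.351 in libraries labelled Q140 Msh3-/- and from -0.92 to 0.959 in Q140, so similar amounts of blood are not shown. Library Q140 M4 lay nearest to the other group. Libraries Q140 F1 and M1 lay farthest and were also the highest in oligodendrocyte markers, and Q140 M1 was the highest of the 16 in septal, pallidal and thalamic markers. Libraries Q140 Msh3-/- M2, M3 and M4 and Q140 M3 were the highest in cortical neuron markers, and the counts without each set are given below.

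Reads assigned to Msh3 (chr13:92211872-92355003, minus strand, GRCm38) were more abundant wherever the label said Msh3-/-. Msh3 had 118.3 CPM in the lowest, 122.9 at the median and 135.5 in the highest of the 8 libraries labelled Q140 Msh3-/-, against 29.48, 32.46 and 33.21 CPM in the Q140 libraries. The groups did not overlap, and Msh3 rose by 1.96 ± 0.04 on the log2 scale (standard error, edgeR, adjusted p = 3.06e-39). Without the knock-in the same reads averaged 119.7 ± 7.03 CPM in libraries labelled Msh3-/- (SD, n = 8) and 30.98 ± 1.46 CPM in wild type libraries (SD, n = 7). All libraries labelled Msh3-/- thus differ from their controls in this gene, but in the direction opposite to a lost transcript. Which part of the gene is disrupted is not given in the sources used here, and counts per gene do not tell which part was read. Every direction below rests on the labels.

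Htt, the gene that carries the repeat, had 191.3 CPM in the lowest, 217.0 at the median and 234.2 in the highest library labelled Q140 Msh3-/-, against 170.0, 192.6 and 213.0 CPM in Q140 libraries. The ranges overlapped, and Htt rose by 0.17 ± 0.04 on the log2 scale (edgeR, adjusted p = 0.00318). Wild type libraries lay between 203.6 and 213.5 CPM. Counts per gene do not separate the knock-in allele from the normal one.

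In the libraries labelled Q140 Msh3-/-, 1368 genes were higher and 1006 were lower than in the Q140 libraries (6.85% and 5.04% of genes tested, together 11.9%). Leaving out genes with clone names or a mean log2 CPM below 0, the largest rises after Msh3 were Aoah, Mafa, Gpx6, Tmprss6 and Wnt8b, and the largest falls were AW495222, Sfmbt2, Rasgrf2, Rprm and Tsix. The split depended on the scaling: with library totals alone, 804 genes were higher and 3463 lower, and the median log2 fold change over all genes tested was -0.07, against -0.01 with TMM. At the level of single libraries, 87 genes lay above every Q140 library in all 8 libraries labelled Q140 Msh3-/- (0.436% of genes tested), all 87 of them called. Another 102 genes lay below every Q140 library (0.511%), 98 of them called.

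The genes that rose were abundant and long. Their median level was 6.40 on the average log2 CPM scale, against 4.07 for the genes that fell and 3.36 for all genes tested. Their median span in the annotation was 50.6 kb, against 15.4 kb for the genes that fell and 16.9 kb for all genes tested. Rising genes also varied less between the libraries labelled Q140 Msh3-/-, with a median SD of 0.10 on the log2 scale, than between the Q140 libraries, with 0.14. The SD was larger in Q140 for 78.1% of the genes that rose, 54.6% of those that fell and 57.1% of all genes tested. Of 736 X-linked genes tested, 38 rose and 63 fell, whereas of 19200 autosomal genes 1328 rose and 943 fell.

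The MSN identity list holds genes that mark both kinds of MSN, such as signalling enzymes and channels of these cells. Of its 29 genes, 27 rose and none fell, against 6.85% of all genes tested that rose. The median log2 fold change of the list was 0.31, against -0.01 over all genes tested. Gpr149 (-0.31) and Strip2 (0.14) did not pass the test. In whole tissue, more MSNs and more of these RNAs per MSN cannot be told apart.

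Scn4b, a sodium channel beta subunit, had 1304 CPM in the lowest, 1541 at the median and 1724 in the highest library labelled Q140 Msh3-/-, against 749, 905 and 1324 CPM in the Q140 libraries. The 2 highest Q140 libraries, F3 and M4, reached the bottom of the other group. Scn4b rose by 0.63 ± 0.08 on the log2 scale (edgeR, adjusted p = 3.68e-07). Msh3-/- libraries without the knock-in averaged 1864 CPM and wild type libraries 1900 CPM.

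Pde10a, the phosphodiesterase that breaks down cyclic nucleotides in MSNs, had a median of 2379 CPM (range 2134 to 2753) in the libraries labelled Q140 Msh3-/-, against 1575 CPM (1224 to 2166) in the Q140 libraries. It rose by 0.56 ± 0.07 (log2, edgeR, adjusted p = 6.58e-07). Adcy5, the main striatal adenylyl cyclase, had a median of 1631 CPM (1510 to 1756) against 1238 CPM (1031 to 1504) in Q140, and its ranges did not overlap. Arpp21, a cyclic AMP-regulated phosphoprotein, had a median of 1473 CPM (1252 to 1637) against 1015 CPM (855.5 to 1255) in Q140. It rose by 0.52 ± 0.06 (log2, edgeR, adjusted p = 5.32e-08), and the groups overlapped by 1 library on each side. Ryr1, an intracellular calcium release channel, had the largest rise of the list, 0.79 ± 0.15 (log2, edgeR, adjusted p = 0.000359), with a median of 137.6 CPM against 72.85 CPM in Q140. The averages in wild type libraries were 2722 CPM for Pde10a, 1916 CPM for Adcy5, 1578 CPM for Arpp21 and 171.7 CPM for Ryr1.

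**Figure D1:**
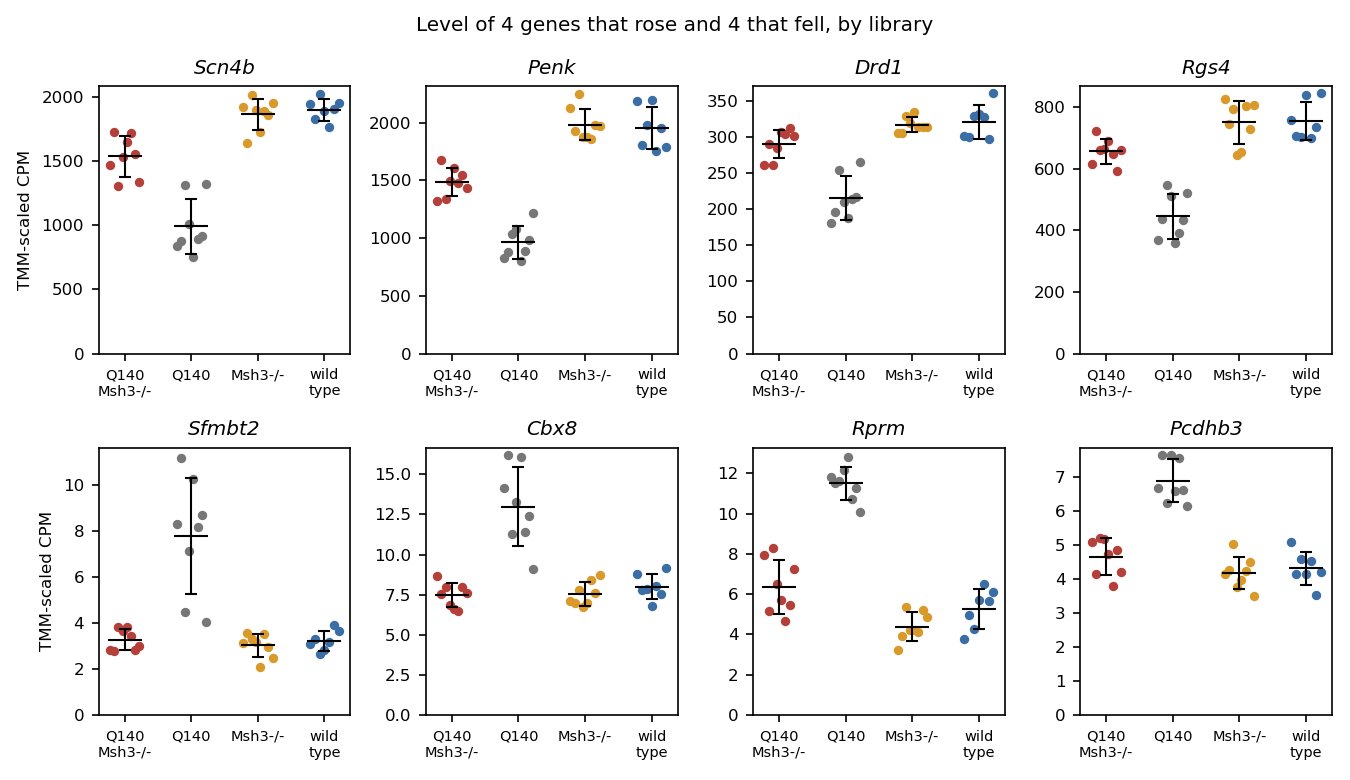
Level of 8 genes in each library, as TMM-scaled CPM on a linear axis from 0, with points for libraries and bars for the mean ± SD, in libraries labelled Q140 Msh3-/- (n = 8), Q140 (n = 8), Msh3-/- (n = 8) and wild type (n = 7). Scn4b, Penk, Drd1 and Rgs4 lie higher in libraries labelled Q140 Msh3-/- than in Q140, while Sfmbt2, Cbx8, Rprm and Pcdhb3 lie lower, with no shared values between the 2 groups for Penk, Rgs4 and these 4 falls.

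The averaged level of the MSN identity list, as the mean of log2(CPM + 0.5), ran from 8.782 to 8.953 in the libraries labelled Q140 Msh3-/-, against 8.302 to 8.777 in the Q140 libraries. The ranges did not overlap but nearly touched, at Q140 M4 and Q140 Msh3-/- F3. The lowest Q140 libraries were M1 and F1. The oligodendrocyte list ran the other way within the Q140 group, where F1 (7.19) and M1 (7.06) were the highest against a group median of 6.75. Without these 2 libraries, 26 of the 29 MSN genes still rose and the median fold change was 0.24 on the log2 scale. The mean level of the cortical neuron list ran from 2.40 to 3.08 in the libraries labelled Q140 Msh3-/-, against 2.53 to 2.97 in Q140. Without the 4 libraries highest in that list, 26 MSN genes rose with a median of 0.30. Both sets of libraries were chosen after the data were seen.

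The indirect pathway list held a larger share of rises than the direct pathway list, and the difference between the lists was not tested. Without Q140 F1 and M1, 4 of 8 indirect and 3 of 10 direct pathway genes rose. In a fit of the 2 groups with a block for replicate number, 3 of 8 and 4 of 10 rose, so the order depended on the fit. In the main fit, 6 of 8 indirect pathway genes rose, with a median of 0.38 on the log2 scale. This is 75% called, against 11.9% of all genes. Penk, the enkephalin precursor, had 1318 CPM in the lowest, 1485 at the median and 1679 in the highest library labelled Q140 Msh3-/-, against 800.4, 937.4 and 1218 CPM in the Q140 libraries. No Q140 library reached the other group, and Penk rose by 0.62 ± 0.08 (log2, edgeR, adjusted p = 1.77e-07). Drd2, the receptor of this pathway, had a median of 255.5 CPM against 193.6 CPM in Q140 and rose by 0.39 ± 0.07 (log2, edgeR, adjusted p = 3.89e-05). Adora2a, its adenosine receptor, had a median of 332.7 CPM against 226.7 CPM in Q140, and Gpr6, an orphan receptor, 77.12 CPM against 61.47 CPM in Q140. Gpr6 did not overlap between the groups, whereas Drd2 and Adora2a did, with Q140 M4 the highest Q140 library for both.

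Of 10 direct pathway genes, 3 rose and 1 fell, with a median of 0.11 on the log2 scale. This is 40% called, against 11.9% of all genes. Drd1 had 261.4 CPM in the lowest, 296.2 at the median and 312.4 in the highest library labelled Q140 Msh3-/-, against 180.4, 212.0 and 265.8 CPM in the Q140 libraries. It rose by 0.43 ± 0.05 (log2, edgeR, adjusted p = 5.32e-08), and Q140 M4 was the one Q140 library that overlapped with the other group. Chrm4, the muscarinic receptor of these cells, had a median of 78.99 CPM against 60.05 CPM in Q140. Tac1, the substance P precursor, averaged 164.2 ± 12.6 CPM in libraries labelled Q140 Msh3-/- and 162.8 ± 13.3 CPM in Q140 libraries (SD, n = 8 each), and Pdyn, the dynorphin precursor, 113.6 ± 14.8 CPM against 98.11 ± 6.55 CPM in Q140. Neither passed the test. Isl1, a transcription factor of direct pathway and cholinergic neurons, went the other way, with 16.06 to 18.47 CPM against 18.81 to 21.45 CPM in Q140, and fell by 0.20 ± 0.05 (log2, edgeR, adjusted p = 0.00447) without overlap.

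Of 25 transcription factors of striatal neurons, 5 rose and 1 fell (24% called, against 11.9% of all genes), and the median of the list was 0.04 on the log2 scale with TMM and -0.02 with library totals. Rarb, a retinoic acid receptor, had a median of 113.9 CPM (109.1 to 129.4) against 96.0 CPM (85.57 to 103.0) in Q140, without overlap. Foxp1 rose by 0.27 ± 0.05 (log2, edgeR, adjusted p = 0.000134) and Bcl11b by 0.24 ± 0.05 (adjusted p = 0.00161), both of them factors of MSN development. Of 9 striosome genes none passed the test, and of 8 matrix genes Id4 (0.39) and Rasgrp2 (0.28) rose.

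Signalling genes downstream of dopamine receptors were among the rises. Of 35 genes of cyclic AMP signalling, 15 rose and 1 fell, and of 28 regulators of G proteins and small GTPases, 15 rose and 1 fell, which is 45.7% and 57.1% called against 11.9% of all genes. With library totals the cyclic AMP list held 14 rises and 5 falls. Ppp1r1b, whose product DARPP-32 integrates dopamine and glutamate signals, averaged 1869 ± 123 CPM in libraries labelled Q140 Msh3-/- and 1445 ± 168 CPM in Q140 libraries, without overlap. Rgs4, which speeds the shut-off of G proteins, had 592.6 CPM in the lowest, 660.3 at the median and 723.1 in the highest library labelled Q140 Msh3-/-, against 359.2, 434.2 and 546.1 CPM in the Q140 libraries. The groups did not overlap, and Rgs4 rose by 0.56 ± 0.08 (log2, edgeR, adjusted p = 1.04e-06). Rgs14, of the same family, also rose without overlap, with medians of 69.64 CPM against 43.81 CPM in Q140. The single fall in the G protein list was Rasgrf2, which lies beside Msh3 and is described with its neighbours.

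Of 40 genes of calcium release and calmodulin signalling, 25 rose and none fell, with a median of 0.21 on the log2 scale. This is 62.5% called, against 11.9% of all genes. Lists share members, so their counts partly repeat the same genes. Ryr1, for example, is in this list, the MSN identity list and the muscle list. Atp2b1, a calcium pump of the cell membrane, had a median of 1816 CPM against 1329 CPM in Q140. Itpr1, the IP3 receptor, rose by 0.50 ± 0.08 (log2, edgeR, adjusted p = 5.09e-05). Camk4, a calmodulin kinase of the nucleus, had a median of 769.8 CPM (630.6 to 897.8) against 573.4 CPM (445.3 to 679.2) in Q140. Camk2b, a subunit of the main synaptic kinase, had 1578 to 1728 CPM against 1217 to 1553 CPM in Q140, without overlap. With library totals, 23 members of this list rose and 1 fell.

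At the synapse, the postsynaptic list held more called genes than the presynaptic list, a difference that was not tested. Of 30 postsynaptic scaffold and plasticity genes, 18 rose and none fell (median 0.22 on the log2 scale, 60% called against 11.9% of all genes). Of 29 presynaptic release genes, 1 rose and 1 fell (6.9% called). With library totals those counts were 18 and 5 for the postsynaptic list and 1 and 7 for the presynaptic list. Shank3, a scaffold of excitatory synapses, had a median of 462.7 CPM (443.4 to 518.4) against 382.1 CPM (305.4 to 463.6) in Q140. Ppp1r9a, an actin-binding scaffold of spines, rose by 0.32 ± 0.05 (log2, edgeR, adjusted p = 3.89e-05). The presynaptic fall was Syp, a synaptic vesicle protein, with a median of 527.3 CPM (485.7 to 631.1) against 675.9 CPM (598.8 to 729.1) in Q140, a fall of 0.29 ± 0.05 (log2, edgeR, adjusted p = 9.22e-05).

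Among channels and receptors, counts are set against 6.85% of all genes that rose and 5.04% that fell. Of 46 potassium channel genes 17 rose and 1 fell, of 29 sodium and calcium channel genes 11 rose and 1 fell, and of 49 neuropeptide and monoamine receptors 18 rose and 3 fell. Of 24 glutamate receptors 9 rose, and of 14 GABA receptors 3 rose, with no fall in either list. The share called ran from 21.4% for the GABA receptors to 42.9% for the neuropeptide and monoamine receptors. Kcnh4, a voltage-gated potassium channel, had a median of 78.69 CPM against 47.05 CPM in Q140, Cacng4, an AMPA receptor auxiliary subunit, 154.0 CPM against 122.1 CPM in Q140, and Grm5, a metabotropic glutamate receptor, 511.3 CPM against 418.6 CPM in Q140. Cnr1, the cannabinoid receptor, rose by 0.53 ± 0.12 (log2, edgeR, adjusted p = 0.00254). Htr2c, a serotonin receptor, was the strongest fall, with 76.83 ± 8.28 CPM against 101.2 ± 8.89 CPM in Q140 (SD, n = 8 each) and no overlap. The medians of these lists stayed above 0 with library totals, except that of the GABA receptors (0.01 with TMM, -0.06 with totals) and that of the sodium and calcium channels (0.06 with TMM, -0.002 with totals). Without Q140 F1 and M1, the rises numbered 9 in the cyclic AMP list, 5 in the sodium and calcium channels and 5 in the glutamate receptors. They numbered 12 in the potassium channels, 12 in the neuropeptide and monoamine receptors and 2 in the GABA receptors. The G protein list then held 11 rises, the calcium and calmodulin list 21, and the postsynaptic list 12 with 1 fall.

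Of 23 activity-regulated genes, Homer1, Nptx2, Egr3 and Ier5 rose (17.4% called, against 11.9% of all genes). Egr3, an immediate-early transcription factor, had a median of 117.6 CPM against 84.93 CPM in Q140. Fos averaged 11.64 ± 7.66 CPM in the libraries labelled Q140 Msh3-/- and 17.70 ± 11.9 CPM in Q140, and Arc 128.1 ± 73.1 CPM against 135.6 ± 44.6 CPM in Q140 (SD, n = 8 each), and neither passed the test. Of 18 neuropeptide genes, Penk, Cartpt, Crh and Chgb rose (22.2% called), and 1 did without Q140 F1 and M1. Of 14 neurotrophin signalling genes, Ntrk3, Sort1, Ntrk2 and Sorcs2 rose and Ret fell (35.7% called). Without Q140 F1 and M1, 2 rose and none fell. Ret, a receptor tyrosine kinase, had 1.36 to 3.02 CPM in libraries labelled Q140 Msh3-/-, against 6.76, 5.86 and 5.24 CPM in Q140 F1, F2 and M1 and 1.29 to 2.83 CPM in the other 5 Q140 libraries. The fall thus rests on 3 Q140 libraries. Of 32 Wnt genes, 5 rose (15.6% called), and 2 did without the 4 libraries highest in cortical markers. Among the 5 were the ligands Wnt8b, with a median of 1.66 CPM against 0.857 CPM in Q140, and Wnt4, with 1.74 against 0.979 CPM in Q140. Of 48 axon guidance genes, 5 rose (10.4% called), and none did without Q140 F1 and M1.

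**Figure D2:**
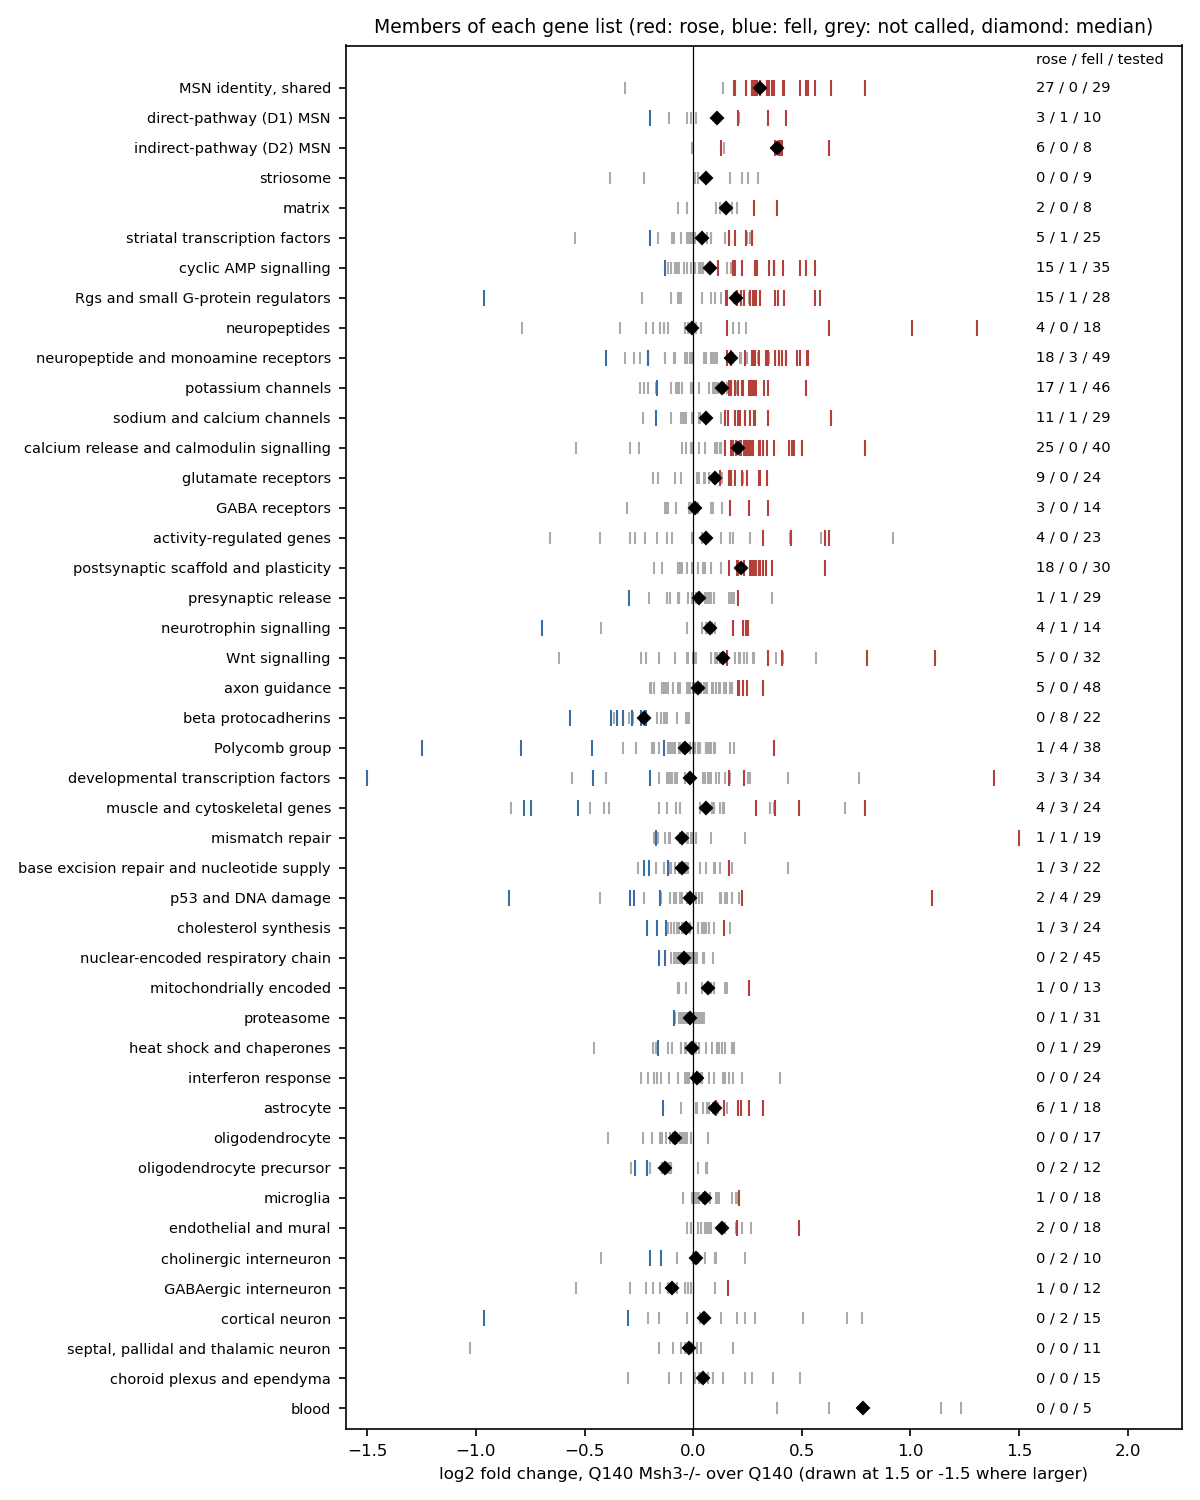
Log2 fold change of libraries labelled Q140 Msh3-/- over Q140 for the tested members of 45 gene lists, with a tick for each gene, a diamond at the list's median, and the numbers of genes that rose, fell and were tested at the right. The MSN identity list stands at 27 rises and no falls of 29 genes, and the beta protocadherins at no rises and 8 falls of 22.

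The largest rises apart from Msh3 were in genes of low abundance. Mafa, a transcription factor better known from pancreatic beta cells, had 0.638 CPM in the lowest, 1.30 at the median and 1.81 in the highest library labelled Q140 Msh3-/-, against 0.292, 0.421 and 0.793 CPM in the Q140 libraries. The ranges overlapped, and Mafa rose by 1.38 ± 0.20 (log2, edgeR, adjusted p = 3.14e-06). Aoah, a hydrolase that inactivates bacterial lipid A, had a median of 1.17 CPM against 0.298 CPM in Q140, and Gpx6, a glutathione peroxidase, 5.602 CPM against 2.66 CPM in Q140. Ddit4l, an inhibitor of mTOR signalling, had 15.56 to 29.55 CPM against 6.63 to 18.4 CPM in Q140 and rose by 1.099 ± 0.14 (log2, edgeR, adjusted p = 4.09e-07). Slc4a11, a membrane transporter, and Dgat2l6, an acyltransferase-like gene, were 2 of the largest rises whose groups did not overlap, with medians of 11.48 CPM against 5.80 CPM in Q140 and of 1.61 CPM against 0.784 CPM in Q140. Cartpt, a neuropeptide precursor, rose by 1.005 ± 0.34 (log2, edgeR, adjusted p = 0.0454), with 1 library, Q140 Msh3-/- M3, at 4.76 CPM against a group median of 1.37 CPM.

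Among the falls were genes of the Polycomb group. Polycomb proteins keep developmental genes silent by modifying and compacting chromatin. Of 38 members tested, 4 fell and 1 rose, which is 13.2% called, near the 11.9% of all genes tested, so the values below are of single genes. The list's median was -0.04 on the log2 scale against -0.01 for all genes. With library totals 11 members fell, and without Q140 F1 and M1 3 fell. Sfmbt2, a Polycomb protein with MBT domains, had 2.80 CPM in the lowest, 3.22 at the median and 3.85 in the highest library labelled Q140 Msh3-/-, against 4.04, 8.24 and 11.2 CPM in the Q140 libraries. The groups did not overlap, and Sfmbt2 fell by 1.249 ± 0.14 (log2, edgeR, adjusted p = 5.32e-08). Wild type libraries lay between 2.63 and 3.91 CPM, and libraries labelled Msh3-/- without the knock-in between 2.11 and 3.59 CPM.

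Cbx8, a chromodomain subunit that reads the Polycomb mark, lies at chr11:119036305-119040969 (minus strand, GRCm38). Cbx8 had 6.496 CPM in the lowest, 7.56 at the median and 8.63 in the highest library labelled Q140 Msh3-/-, against 9.10, 12.85 and 16.2 CPM in Q140. The groups did not overlap, and Cbx8 fell by 0.79 ± 0.08 (log2, edgeR, adjusted p = 6.27e-09). Bmi1, a subunit of the same complex, fell by 0.13 ± 0.04 (log2, edgeR, adjusted p = 0.0241). The catalytic subunit of the other Polycomb complex, Ezh2, and its partner Suz12 stood at 0.03 and 0.02 on the log2 scale and did not pass the test.

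Rprm, a cell cycle arrest gene of the p53 pathway, had 4.66 CPM in the lowest, 6.11 at the median and 8.28 in the highest library labelled Q140 Msh3-/-, against 10.1, 11.6 and 12.8 CPM in Q140. It fell by 0.85 ± 0.14 (log2, edgeR, adjusted p = 6.18e-05) without overlap, and averaged 5.28 CPM in wild type libraries. Within the p53 and DNA damage list of 29 genes, Rprm, Phlda3, Sesn2 and Trp53 fell, and Ddit4l and Plk2 rose (20.7% called, against 11.9% of all genes). Without Q140 F1 and M1, 1 gene of the list fell. Trp53 itself averaged 21.95 ± 1.15 CPM against 24.40 ± 1.70 CPM in Q140 (SD, n = 8 each), a fall of 0.15 ± 0.05 (log2, edgeR, adjusted p = 0.0248).

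The 250 bases before the RefSeq start of 2 genes that rose and 2 that fell are shown, to set the upstream sequence of genes that moved in opposite directions side by side. They were read from RefSeq on GRCm38.p6, 5′ to 3′ on the strand of the gene, with every CG pair in capitals, and cover chr9:45138374-45138623 (plus) for Scn4b, chr1:169747643-169747892 (minus) for Rgs4, chr11:119040914-119041163 (minus) for Cbx8 and chr2:54085553-54085802 (minus) for Rprm.
Scn4b: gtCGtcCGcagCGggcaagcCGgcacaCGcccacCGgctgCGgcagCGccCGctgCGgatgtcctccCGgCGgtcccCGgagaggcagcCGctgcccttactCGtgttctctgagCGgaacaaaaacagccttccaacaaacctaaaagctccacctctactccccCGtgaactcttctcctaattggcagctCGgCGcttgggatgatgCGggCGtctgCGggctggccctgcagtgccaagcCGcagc
Rgs4: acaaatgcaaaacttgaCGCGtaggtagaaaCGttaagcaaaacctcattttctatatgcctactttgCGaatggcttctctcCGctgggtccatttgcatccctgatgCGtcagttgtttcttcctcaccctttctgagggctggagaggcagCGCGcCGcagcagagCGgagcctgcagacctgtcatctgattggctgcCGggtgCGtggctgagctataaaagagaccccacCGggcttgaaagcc
Cbx8: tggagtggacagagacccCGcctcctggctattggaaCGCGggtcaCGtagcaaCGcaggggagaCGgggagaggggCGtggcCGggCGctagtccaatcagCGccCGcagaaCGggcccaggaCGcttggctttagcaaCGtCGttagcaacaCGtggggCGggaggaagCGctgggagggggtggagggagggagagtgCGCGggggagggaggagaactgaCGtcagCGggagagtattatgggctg
Rprm: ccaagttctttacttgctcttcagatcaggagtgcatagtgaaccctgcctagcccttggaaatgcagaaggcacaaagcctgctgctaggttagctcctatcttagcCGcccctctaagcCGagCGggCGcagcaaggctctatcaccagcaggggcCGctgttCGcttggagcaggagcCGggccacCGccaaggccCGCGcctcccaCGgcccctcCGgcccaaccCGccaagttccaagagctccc
Scn4b held 23 CG pairs, Rgs4 13, Cbx8 22 and Rprm 13, against a median of 6 over 32851 promoters in the table. Both genes that rose and both that fell lie above that median. The cyclic AMP response element TGACGTCA, which reads the same on both strands, occurs in 1.55% of these windows and, of the 4 shown, in Cbx8. Its shorter form TGACG, searched on both strands and contained in the longer one, occurs in 17.8% of windows and was found in Rgs4 and Cbx8. By the gene coordinates given earlier for Cbx8, its TGACGTCA lies inside the annotated gene, because RefSeq places the start farther in. The motifs are matches of letters and say nothing of binding.

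Beta protocadherins, the clustered cell adhesion genes by which neurons tell each other apart, gave falls and no rises. Of 22 tested, 8 fell and none rose, against 5.04% of all genes tested that fell, and all 22 fold changes lay below 0 (median -0.23 on the log2 scale, and -0.29 with library totals, where 13 fell). Without Q140 F1 and M1, 5 fell. Pcdhb3 had 3.79 CPM in the lowest, 4.80 at the median and 5.21 in the highest library labelled Q140 Msh3-/-, against 6.16, 6.66 and 7.67 CPM in the Q140 libraries. It did not overlap and fell by 0.57 ± 0.08 (log2, edgeR, adjusted p = 1.83e-06). Pcdhb9 had a median of 15.8 CPM against 19.8 CPM in Q140, and Pcdhb7 averaged 8.35 ± 0.770 CPM against 10.9 ± 0.738 CPM in Q140 (SD, n = 8 each). Family members are close in sequence, so how reads were shared among them is uncertain.

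Transcription factors of other tissues and muscle genes gave single falls. Wt1, a factor of kidney and gonad development, ran from 0.0214 to 0.190 CPM in the libraries labelled Q140 Msh3-/-, against 0 to 2.14 CPM in Q140, where 7 of the 8 libraries lay at 0.448 CPM or more. The library at 0 was Q140 M4, where 3 counts would give 0.0585 CPM. Wt1 fell by 3.90 ± 0.51 (log2, edgeR, adjusted p = 7.17e-07), and its highest wild type library stood at 0.167 CPM. Among 34 developmental factors, 3 rose and 3 fell (17.6% called, against 11.9% of all genes). Ttn, the giant protein of muscle, had 1.16 to 1.84 CPM against 1.91 to 3.34 CPM in Q140 and fell by 0.78 ± 0.17 (log2, edgeR, adjusted p = 0.00119). Tnnt2 and Cmya5 also fell, while Ryr1, Myh7b, Myh7 and Actn2 of the same list of 24 rose, so the muscle list moved in both directions. Of the muscle list 29.2% was called. Tsix fell by 0.81 ± 0.18 (log2, edgeR, adjusted p = 0.00191), but Tsix is transcribed across Xist from the other strand, and whether reads were counted by strand is not given in the sources used here.

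Several of the largest falls lie close to Msh3. Distances are taken between the lower coordinates of the genes, so the gaps between genes can be smaller. Of 58 other tested genes within 5 Mb of Msh3, 16 were called (27.6%, against 11.9% of all genes). Without the knock-in, libraries labelled Msh3-/- against wild type gave 6 calls in all (0.03% of genes tested, 807 at an unadjusted p under 0.05), namely Msh3 and 5 of these neighbours, Rasgrf2, Cmya5, F2r, AW495222 and Sv2c. The 2 comparisons share no library.

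Rasgrf2, an exchange factor for Ras, lies 0.331 Mb from Msh3 and had 15.07 CPM in the lowest, 22.45 at the median and 25.52 in the highest library labelled Q140 Msh3-/-, against 33.43, 42.06 and 51.01 CPM in Q140. It fell by 0.96 ± 0.16 with the knock-in (log2, edgeR, adjusted p = 4.83e-05) and by 1.43 ± 0.16 without it (adjusted p = 3.71e-07), where the wild type libraries spread from 27.35 to 101.0 CPM. The difference of the 2 effects was 0.46 (adjusted p = 0.322). Cmya5, a muscle-associated protein 0.829 Mb away, had medians of 8.49 against 14.1 CPM in Q140 and fell by 0.75 ± 0.09 and, without the knock-in, by 0.90 ± 0.09. F2r, the thrombin receptor 3.39 Mb away, rose instead, with medians of 6.83 against 4.78 CPM in Q140, by 0.64 ± 0.10 and, without the knock-in, by 1.06 ± 0.10. AW495222, 1.49 Mb away, had medians of 0.591 against 2.73 CPM in Q140 and fell by 2.02 ± 0.17 and, without the knock-in, by 1.14 ± 0.18, and here the 2 effects differed (-0.88 on the log2 scale, edgeR, adjusted p = 0.0412). Sv2c was called only without the knock-in, and its values with it were -0.12 ± 0.05 (log2, adjusted p = 0.123).

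Homer1, a postsynaptic scaffold 1.09 Mb from Msh3, did not share this pattern. It had medians of 231.1 CPM in the libraries labelled Q140 Msh3-/- and 149.3 CPM in Q140 and rose by 0.61 ± 0.10 (log2, edgeR, adjusted p = 7.25e-05). Without the knock-in it averaged 237.5 CPM in libraries labelled Msh3-/- and 248.2 CPM in wild type, and the difference of the 2 effects was 0.67 (edgeR, adjusted p = 0.00987).

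Of 19 tested genes of mismatch repair, Msh3 rose and Rpa2 fell, which is 10.5% called against 11.9% of all genes. Rpa2, a subunit of the single-strand binding complex, fell by 0.17 ± 0.05 (log2, edgeR, adjusted p = 0.0322). No member of the list fell without Q140 F1 and M1, and 4 fell with library totals. Mlh3, a subunit of the endonuclease that acts after MutSβ, averaged 37.54 ± 2.50 CPM in libraries labelled Q140 Msh3-/- and 37.53 ± 2.59 CPM in Q140 (SD, n = 8 each). Of 22 genes of base excision repair and nucleotide supply, Mpg, Neil1 and Rrm2b fell and Mbd4 rose (18.2% called). With library totals 8 fell and none rose, and without Q140 F1 and M1, or without the 4 libraries highest in cortical markers, 1 fell and none rose. Mpg, a DNA glycosylase, had medians of 12.2 against 14.2 CPM in Q140 and fell by 0.22 ± 0.05 (log2, edgeR, adjusted p = 0.0022).

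Housekeeping and stress lists are read against the 11.9% of all genes tested that were called. Of 45 nuclear-encoded respiratory chain genes 2 fell, of 31 proteasome genes 1 fell, of 29 chaperones 1 fell, of 24 cholesterol synthesis genes 3 fell and 1 rose, of 13 mitochondrially encoded genes 1 rose, and of 24 interferon genes none passed. The share called was above that of all genes for cholesterol synthesis (16.7%) and below it for the other lists named here. With library totals 26 respiratory chain genes, 11 proteasome genes, 7 chaperones and 5 cholesterol synthesis genes fell. Without Q140 F1 and M1 the cholesterol list held 1 fall and no rise.

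Markers of other cells are likewise read against 11.9% of all genes called. Of 18 astrocyte genes 6 rose and 1 fell, with a median of 0.10 on the log2 scale, and Slc1a2, the main glutamate transporter of astrocytes, had a median of 3520 CPM (2911 to 3763) against 3005 CPM (2510 to 3341) in Q140. Of 17 oligodendrocyte genes none passed, with a median of -0.08, and of 12 precursor genes Olig2 and Lhfpl3 fell. Without Q140 F1 and M1, 2 astrocyte genes and no endothelial or mural gene rose, no precursor gene fell, and the oligodendrocyte median was 0.02. Of 18 endothelial and mural genes Tagln and Rgs5 rose, of 10 cholinergic genes Isl1 and Ache fell while Chat stood at 0.02, and of 12 GABAergic interneuron genes Kit rose, while the median of that list was -0.10 and 2 of its 12 fold changes were above 0. Of 15 cortical neuron genes Rasgrf2 and Cux2 fell, while the median was 0.05 (-0.02 with library totals) and 10 of the 15 fold changes were above 0. Rasgrf2 is also a neighbour of Msh3 and fell without the knock-in. Of 11 septal, pallidal and thalamic genes none passed. Slc17a6, a glutamate transporter of thalamic neurons, stood at 5.33 CPM in Q140 M1, against at most 1.12 CPM in the other 15 libraries. The part of these cells in the changes of the other lists was not tested beyond the counts without the libraries named.

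**Figure D3:**
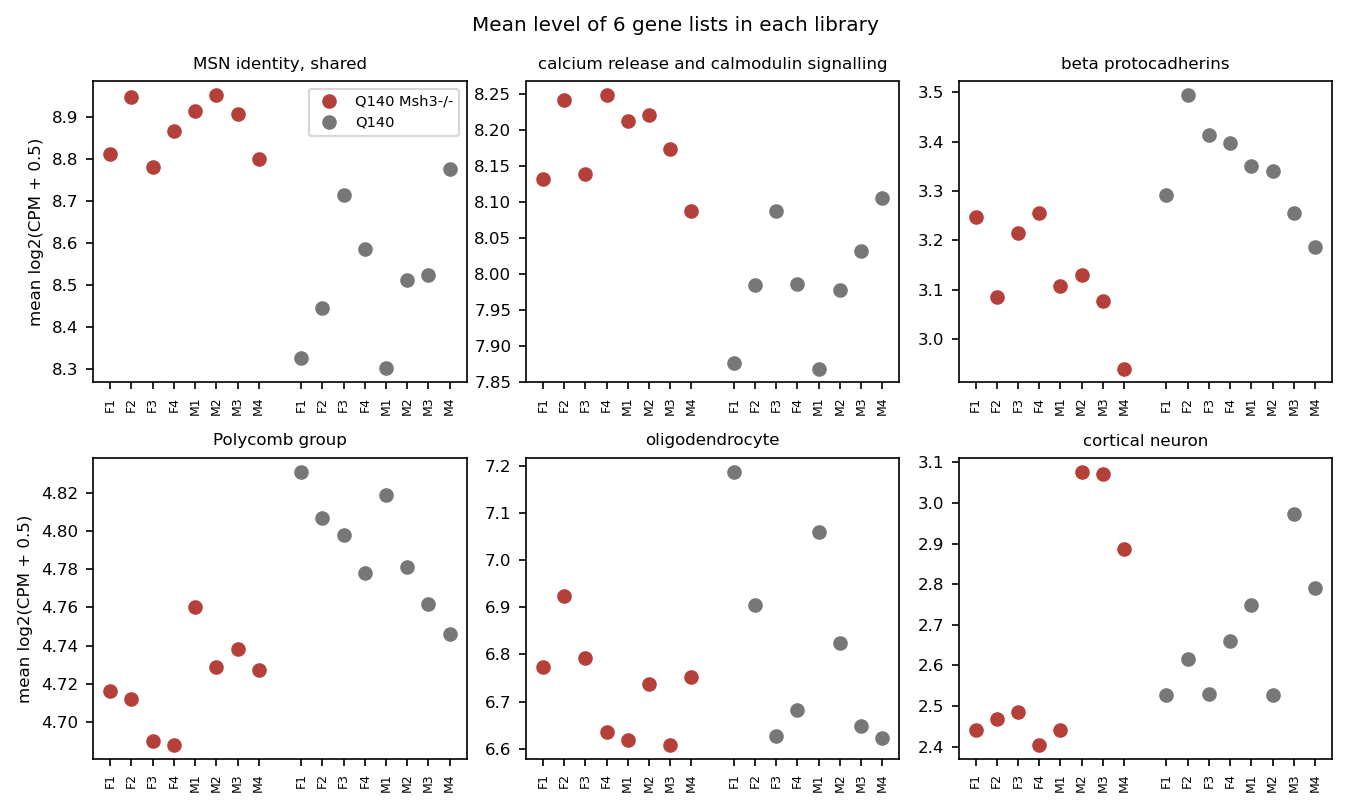
Mean log2(CPM + 0.5) of 6 gene lists in each of the 8 libraries labelled Q140 Msh3-/- and the 8 Q140 libraries, with 1 point per library and axes that do not start at 0. The MSN identity list runs from 8.782 to 8.953 in the libraries labelled Q140 Msh3-/- and from 8.302 to 8.777 in Q140, Q140 M4 lies nearest to the other group, and Q140 F1 and M1 are lowest in MSN identity and highest in oligodendrocyte genes.

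The Q140 libraries were spread along the same axis that separates the groups. Q140 M4 was the highest Q140 library for 630 of the 1368 genes that rose (46.1%) and the lowest for 376 of the 1006 that fell (37.4%), against 10.9% and 13.0% of the 17601 genes not called. At the other end, Q140 M1 was the lowest Q140 library for 622 of the genes that rose (45.5%), against 17.3% of genes not called. Without Q140 M4 the count of called genes was 2936, without Q140 F1 it was 1664, and without both Q140 F1 and M1 it was 1081 (630 higher and 451 lower). Without the 4 libraries highest in cortical markers it was 1558 (1045 higher and 513 lower).

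The effect of the Msh3-/- label with Q140 was set against its effect without Q140 in 1 fit, and the 2 effects differed for 478 genes (2.39%). In 334 of them the effect was higher with Q140 and in 144 it was lower. Of the 334, 329 were genes that rose in libraries labelled Q140 Msh3-/- against Q140, with a median over the 334 of 0.31 on the log2 scale with the knock-in and -0.03 without it. Of the 144, 134 were genes that fell, with medians of -0.23 and 0.04. The test contains the comparison of Q140 Msh3-/- with Q140 and its libraries. The overlap and the medians are therefore partly set by the choice of genes. Of the 29 MSN identity genes 16 were called in this test, of 40 calcium and calmodulin genes 17, and of 22 beta protocadherins 2.

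The strongest differences by p were in Mafa, Rgs14, Ankrd35, Tmem114, Mapk4 and Fgf3. Mapk4, an atypical MAP kinase, had medians of 146.1 CPM in libraries labelled Q140 Msh3-/- and 115.3 CPM in Q140, without overlap, and of 149.0 CPM in Msh3-/- and 155.9 CPM in wild type libraries. Its 2 effects differed by 0.40 (log2, edgeR, adjusted p = 0.000218). Ankrd35, an ankyrin repeat gene, had medians of 12.6 CPM in libraries labelled Q140 Msh3-/- and 7.76 CPM in Q140, and of 16.5 CPM in Msh3-/- and 16.4 CPM in wild type. Fgf3, a growth factor, had 3.73 CPM in libraries labelled Q140 Msh3-/- and 2.10 CPM in Q140, and 4.35 CPM in Msh3-/- and 5.56 CPM in wild type. For Sfmbt2 the difference was -1.16 (log2, edgeR, adjusted p = 0.00103), for Cbx8 -0.71 (adjusted p = 0.000731) and for Penk 0.61 (adjusted p = 0.00103). For Rprm it was -0.59 (adjusted p = 0.14) and for Htt 0.18 (adjusted p = 0.0878).

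The count of 478 was sensitive to single libraries and to well position. With the row of each library's well added to the fit it was 64, with the well column 376, and without Q140 F1 and M1 130. Which step of the work the wells belong to was not established. Q140 Msh3-/- against Q140 gave 2116 calls with the well row and 1724 with the well column, against 2374 without them. Leaving out single libraries gave 262 without Q140 F1, 276 without Q140 M1, 286 without Q140 Msh3-/- F2 and 935 without Q140 M4.

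**Figure D4:**
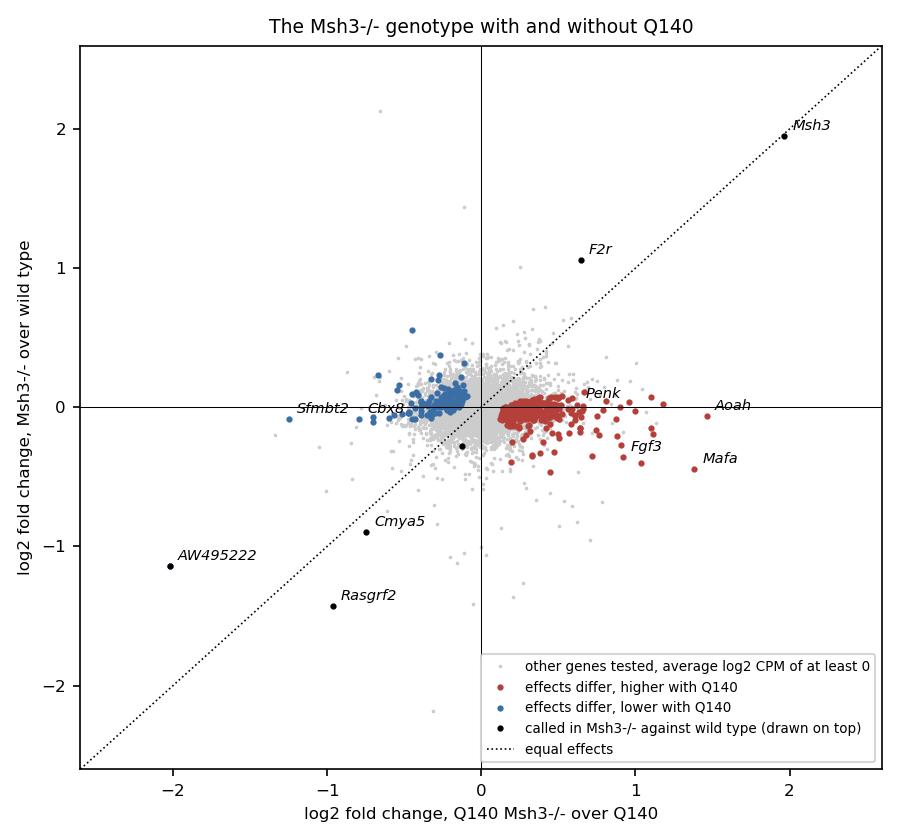
Log2 fold change of libraries labelled Q140 Msh3-/- over Q140 (horizontal axis) and of libraries labelled Msh3-/- over wild type (vertical axis), 1 point per gene whose mean log2 CPM was 0 or more, and the dotted line at equal effects. Genes whose effects differ (red and blue) spread along the horizontal axis, but they were chosen by the difference between the axes, which partly sets their place. Msh3 lies on the dotted line, and Rasgrf2, Cmya5 and F2r lie away from 0 on both axes.

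As background for these levels, Q140 libraries against wild type share the Q140 libraries with the comparison above, so the values are only set side by side. Scn4b averaged 1536 CPM in libraries labelled Q140 Msh3-/-, 990 CPM in Q140, 1864 CPM in Msh3-/- and 1900 CPM in wild type. Drd1 averaged 290.5 CPM in libraries labelled Q140 Msh3-/-, 215.5 CPM in Q140, 317.3 CPM in Msh3-/- and 321.4 CPM in wild type. Rgs4 averaged 657.1 CPM in libraries labelled Q140 Msh3-/-, 445.4 CPM in Q140, 750.2 CPM in Msh3-/- and 754.3 CPM in wild type. For Scn4b, Drd1 and Rgs4, the libraries labelled Q140 Msh3-/- averaged between Q140 and wild type. These are examples, and not every gene that rose did so. Camk4 had a median of 769.8 CPM in libraries labelled Q140 Msh3-/- and 735.3 CPM in wild type, and Bcl11b 533.1 and 521.5 CPM. How many genes lay on each side of wild type was not counted.

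The comparison was repeated within each sex, with 4 libraries against 4. In females 970 genes were called (4.86%), 649 higher and 321 lower, and in males 729 (3.65%), 446 higher and 283 lower. The 2 comparisons share no library, and 280 genes were called in both, which is 28.9% of the female calls and 38.4% of the male calls. Of the genes called in females 92.8% had the same sign in males, and of those called in males 94.1% had the same sign in females, against 63.4% of all genes tested. The test of a difference between males and females called 0 genes with edgeR (1366 at an unadjusted p under 0.05) and 2 with DESeq2. The MSN identity list had a median of 0.35 in males and 0.31 in females. The log2 fold change of Mafa was 1.69 in males and 1.05 in females, and that of Sfmbt2 was -1.252 in males and -1.247 in females.

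**Figure D5:**
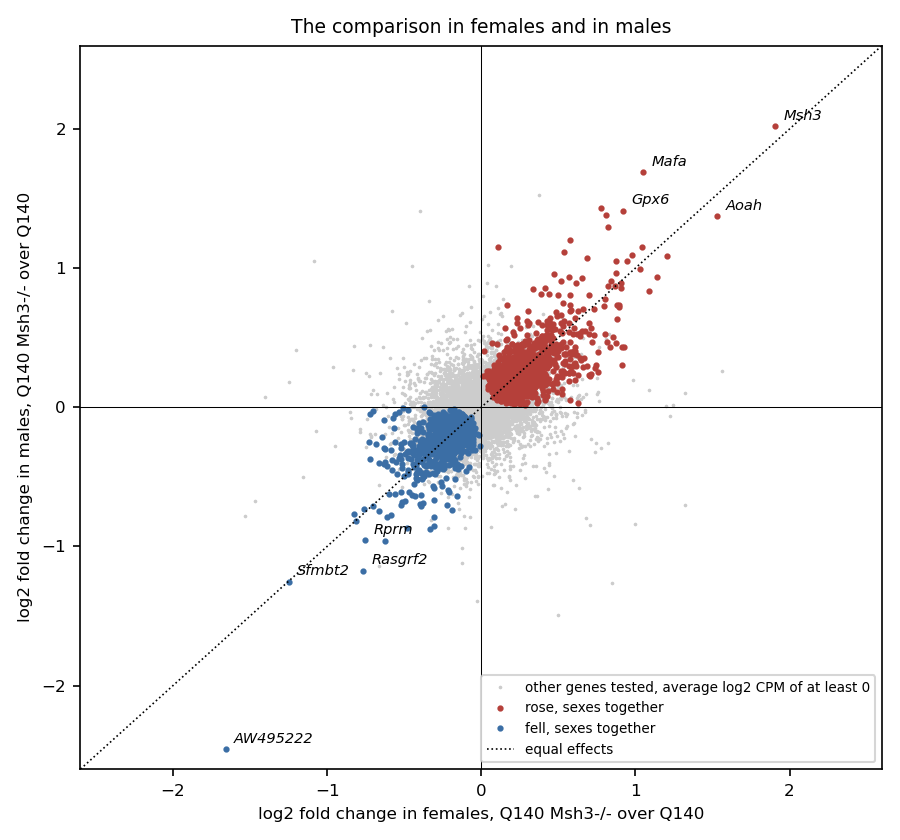
Log2 fold change of libraries labelled Q140 Msh3-/- over Q140 in females (horizontal axis) and in males (vertical axis), 1 point per gene whose mean log2 CPM was 0 or more, red for genes that rose and blue for genes that fell with the sexes together. The called genes were chosen on the same libraries, so their place near the dotted line of equal effects is partly set by that choice. Sfmbt2 stands at -1.247 in females and -1.252 in males, and Mafa lies farther from the line.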

How the data were processed

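Striatal RNA of 48 mouse libraries was extracted with RNeasy kits and made into stranded TruSeq libraries, per the labels' protocols. The submitters' processing notes name HTSeq 0.12.3, STAR 2.7.5c and SAMtools 1.10, and the build GRCm38. The annotation release, strand setting and gene lengths are not given in the sources used here. The authors deposited raw counts per gene and FPKM values. The deposited counts gave all results, and the FPKM values an alternative.

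Genes were kept by edgeR's filter (minimum count 10, minimum total 15), which left 19975 of 48795, and those left out held 0.0383% of counts. Libraries were scaled by TMM and fitted together with group and sex terms in edgeR 4.0.16 (R 4.3.3), by quasi-likelihood with Benjamini-Hochberg adjustment at 0.05. Standard errors are the log2 fold change divided by the root of its F. The biological coefficient of variation was 10.3%. The script was tested on simulated data. DESeq2 1.42.0 and limma 3.58.1 gave alternatives. Levels are TMM-scaled CPM. Coordinates are of GENCODE on GRCm38 and were found for 19899 genes, and promoters are of RefSeq.

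The comparison, members and 45 gene lists were chosen with earlier results of these data known. Genes in the text are Msh3, Htt, the 12 largest rises and 12 largest falls with a symbol and an average log2 CPM of at least 0, up to 4 called genes per list and up to 6 per difference by smallest p, or up to 2 per list as values where none was called, and up to 8 neighbours of Msh3 within 5 Mb. Others, such as Cnr1, Itpr1, Ppp1r1b, Htr2c, Bmi1, Ezh2, Suz12, Trp53, Tac1, Pdyn, Fos, Arc and Mlh3, were added after their values were seen. Some genes are not reported here.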

Additional observations from a re-analysis of the deposited data

Results flagged for a closer look

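Of 140 groups of values examined for a library far from the rest of its group of 8, 10 had one, and chance gives about 1 in 20. Cartpt stood at 4.76 CPM in Q140 Msh3-/- M3, against a group median of 1.37 CPM. Dleu7 stood at 1.84 CPM in Q140 Msh3-/- F1 (median 1.32) and at 3.13 CPM in Q140 F1 (median 2.19).

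The remaining 7 are mean levels of gene lists on the log2 scale. In Q140 Msh3-/- F4, GABA receptors were high at 6.943 (group median 6.766), base excision repair genes low at 3.291 (3.388) and cholinergic interneuron genes high at 4.233 (4.008). In the Q140 group, activity-regulated genes were low at 3.664 in M2 (4.496), axon guidance genes at 5.037 in F4 (5.194), developmental transcription factors at 2.022 in F3 (2.165) and microglial genes at 4.239 in M1 (4.54).

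The effect of the Msh3-/- label differed between mice with and without Q140 for 478 genes, and for 64 with the well row in the fit. The 6 genes with the smallest p each had an edgeR adjusted p of 0.000218. The difference on the log2 scale was 2.01 for Tmem114, 1.83 for Mafa, 1.27 for Fgf3, 0.70 for Rgs14, 0.67 for Ankrd35 and 0.40 for Mapk4.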

How the results depend on the processing

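With library totals in place of TMM, 4267 genes were called between Q140 Msh3-/- and Q140 (804 higher, 3463 lower), and the genes with ranges that do not overlap numbered 310 (51 higher, 259 lower). FPKM values gave 4280 calls (819 and 3461) with a pseudocount of 0.1, 4343 (805 and 3538) with 1, and 3589 (664 and 2925) with 1 and no filter. Without Q140 F1 and M1 there were 1081 (630 and 451). Without the 4 libraries highest in cortical markers there were 1558, with 513 lower, and 544 genes did not overlap (286 and 258). Both sets were chosen after seeing the data. Leaving out single libraries gave 1664 to 2936. For the difference of the effect with and without Q140, library totals gave 1029 calls (254 higher, 775 lower) and no count filter 280 (205 and 75). The well row gave 64 (39 and 25) and DESeq2 763 (531 and 232). Leaving out Q140 F1 and M1 gave 130 (98 and 32), and leaving out the 4 libraries 222 (183 and 39). Leaving out single libraries gave 262 to 935 (189 to 635 higher, 73 to 300 lower). For the difference, the well row and the left-out libraries were added after seeing the data. DESeq2 called 2 genes for the difference between males and females, 1 higher and 1 lower in males. The cause of these shifts was not tested.

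A fit of the 2 groups alone gave 1687 calls, and a replicate block on the shared numbers added to that fit gave 1279 (761 and 518). A limma fit of all 48 libraries that let libraries with a shared code stem correlate (estimated at 0.14) gave 2241 calls (1318 and 923). Same-numbered libraries correlated between -0.38 and 0.33, with 2 of 8 pairs over 0.1 and 3 of 8 libraries closest to their own number, so the numbers do not pair the samples. Tests were repeated for the 132 called genes picked by the rules given above, some of which the text does not name. The genes added after their values were seen, such as Cnr1 and Ppp1r1b, were not among them. Of 4203 repeats, 3838 stayed past the threshold in the same direction, 365 kept the direction only and 0 reversed. In every repeat, 81 of the 132 genes passed. Low counts limit Wt1, Aoah, Mafa and Tmem114.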
